A study of Mus musculus with 46 samples.

Results

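The mitochondrial genome transcripts of mouse are described here in islets and livers with and without targeted loss of Tfam, Clec16a or the mitofusins. They were taken as every gene row whose symbol starts with mt-, which gave 37 of 55487 rows. These comprised 13 protein genes, 2 rRNA genes and 22 tRNA genes. The rule reads the symbol alone and uses no measured value.

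The series holds 46 libraries in 11 groups from 3 experiments. Islets were labelled Tfam control (5 female, 3 male libraries) or Tfam KO (4 female, 2 male). Other islets were labelled Clec16a control or Clec16a KO, with 4 and 4 libraries on the diet labelled RFD, and 6 and 5 on the diet labelled HFD. Livers, whose labels carry the letters AAV, were control (6), Mfn DKO (4) or Tfam KO (3). The labels used here do not write out the diets, and give no ages, no driver of the deletions, no cells in which they act, and no sex for the Clec16a islets or the livers. Islets were cultured overnight and livers were frozen. Total RNA was treated with DNase. Nothing in the labels says whether libraries of a group came from separate animals, so p-values measure the spread between these libraries.

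The mitochondrial genome is a small circle of DNA present in many copies per cell. It is read from both strands as long transcripts, which are cut, mostly at the tRNAs, into rRNAs, mRNAs and tRNAs. Most of its genes are read in 1 direction, here called heavy strand genes. The other direction, here light strand, carries mt-Nd6 and a minority of the tRNAs. The protein genes encode subunits of respiratory complexes I (mt-Nd), III (mt-Cytb) and IV (mt-Co) and of ATP synthase (mt-Atp), and the rRNAs belong to the mitochondrial ribosome. Tfam packages this DNA and starts its transcription. Clec16a takes part in the removal of damaged mitochondria, and the mitofusins Mfn1 and Mfn2 join mitochondria.

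Of all counts in the 37 rows over the 46 libraries, the 12 heavy strand protein genes held 91.6%, mt-Nd6 2.41% and the 2 rRNAs 5.94%. The 14 heavy strand tRNA genes held 0.00323% and the 8 light strand tRNA genes 0.0800%. A total of 6 rows had no count in any library: mt-Nd4l and the tRNA genes mt-Ty, mt-Ts1, mt-Tk, mt-Tg and mt-Th. Sequencing reads were longer than any of the tRNA genes, whose lengths run up to 75 bases. Whether the library protocol retains free tRNAs was not given in the sources used here.

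Part of the mitochondrial genome has a near-identical copy on chromosome 1 (GRCm38), where GENCODE M21 annotates 7 pseudogenes on the minus strand between chr1:24611535-24616197. Their annotated sequences were compared with the members because reads from such stretches cannot be placed by sequence alone. The copies of mt-Nd4 (876 bases), mt-Nd4l (294), mt-Nd3 (342), mt-Co3 (783), mt-Atp6 (678) and mt-Co2 (681) showed 100% identity over the aligned bases. The copy of mt-Co1, Gm29216, covered 31.3% of the gene with 1 mismatch, written A1066T with the base of mt-Co1 first and positions counted from 1 at its 5′ end. The stretch holding that mismatch, in capitals, is shown for both genes (chrM:6390-6450, plus strand, and chr1:24616128-24616188, minus strand), to show how little sequence separates them.
mt-Co1: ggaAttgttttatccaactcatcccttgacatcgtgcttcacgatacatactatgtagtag
Gm29216: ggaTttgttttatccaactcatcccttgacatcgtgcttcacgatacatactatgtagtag

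Counts tracked this identity. For each gene, all stretches of 151 bases, the read length, were looked up in every other annotated transcript. An exact match existed for 99.4% of the stretches of mt-Co2 and of mt-Atp6, 99.8% of mt-Co3, 97.0% of mt-Nd3 and 98.0% of mt-Nd4l. In no library did these genes exceed 39 counts (mt-Co2), 58 (mt-Atp6), 38 (mt-Co3), 39 (mt-Nd3) and 0 (mt-Nd4l). The share was 59.1% for mt-Nd4 and 23.6% for mt-Co1, and 0 for mt-Nd1, mt-Nd2, mt-Nd5, mt-Nd6, mt-Cytb and both rRNAs, and all of these were well counted. mt-Co1 reached 687753 counts and mt-Cytb 503896. The exception was mt-Atp8, which had no match to an annotated transcript yet at most 12 counts in any library. Its neighbours mt-Co2 and mt-Atp6 are both in the copy, and the stretch of chromosome 1 between their pseudogenes was not analysed here. The 7 pseudogenes were low as well, with 560 to 701 counts in sum in the control livers. How reads with several matches were counted is not given in the sources used here, so these 6 low protein rows, and mt-Nd4 and mt-Co1 in part, are uncertain as levels.

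A second ambiguity is strand. mt-Nd5 and mt-Nd6 lie on opposite strands and their 3′ ends overlap. The last 60 bases of each are shown, with the shared 14 base pairs (chrM:13552-13565) in capitals, as the clearest case where a read without strand could belong to either gene.
mt-Nd5 end: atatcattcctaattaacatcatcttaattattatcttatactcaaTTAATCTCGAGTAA
mt-Nd6 end: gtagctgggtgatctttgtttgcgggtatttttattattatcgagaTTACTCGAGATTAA
The strands also differ in composition. mt-Nd6 held 28.1% G and 5.97% C in its RNA sense, against 12.2% G and 26.9% C in mt-Cytb. mt-Tp, the proline tRNA gene of the light strand (chrM:15356-15422, minus strand), is the tRNA row with the most counts, 26874 of the 29207 in light strand tRNA genes, and its sequence is given for that reason.
mt-Tp: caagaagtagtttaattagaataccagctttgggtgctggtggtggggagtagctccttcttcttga
All sequences are from the GENCODE M21 transcripts on GRCm38. The heavy strand transcript runs antisense through mt-Nd6 and mt-Tp. The counting's strand setting is not given in the sources used here, so counts in these rows may include antisense reads.

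Levels per gene length in the control libraries were compared next, with the deposited TPM (counts scaled by gene length and by library). mt-Co1 and mt-Cytb led in the 3 experiments. In the control livers mt-Cytb had a median of 17044 TPM (range 13831 to 20490) and mt-Co1 16438 TPM (15153 to 20708), and their ranges overlapped. In the Tfam control islets mt-Co1 was at 5961 TPM (4798 to 6702) and mt-Cytb at 4797 TPM (4031 to 5407), again overlapping. In the Clec16a control islets mt-Cytb was at 11542 TPM (6669 to 15494) and mt-Co1 at 7610 TPM (4547 to 10663). The rRNAs, which every mitochondrial ribosome holds, were lower than these mRNAs in each control library set. mt-Rnr2 had a median of 789 TPM in the Tfam control islets, 330 TPM in the Clec16a control islets and 2452 TPM in the control livers. How much rRNA the library protocol retains was not given in the sources used here. These levels, and the rRNA to mRNA ratios below, are therefore uncertain as measures of rRNA relative to mRNA.

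**Figure D1:**
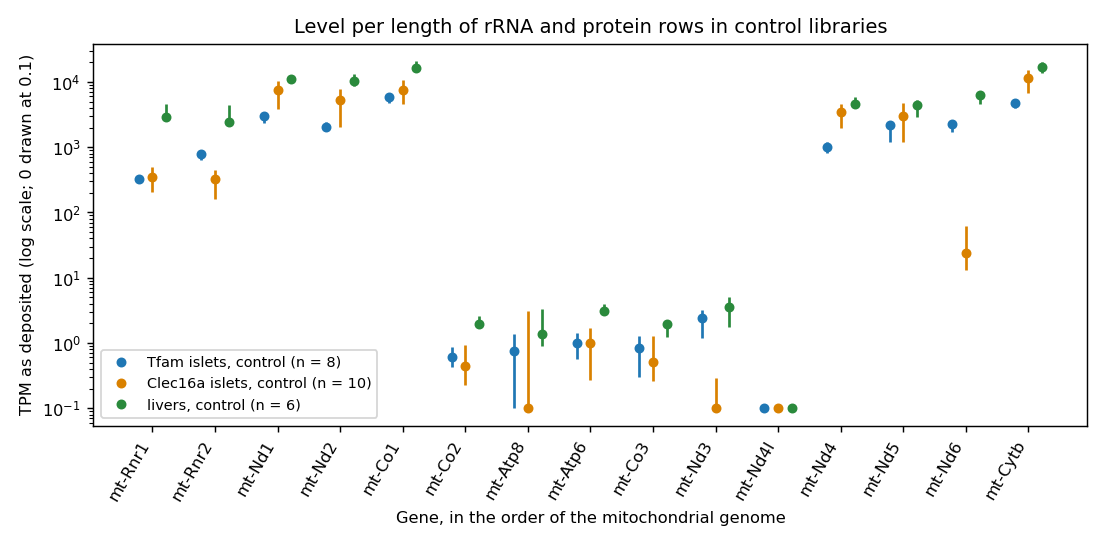
Deposited TPM (log scale, 0 drawn at 0.1) of the 2 rRNA and 13 protein rows in genome order, in control libraries of the 3 experiments; points are medians and lines run from the lowest to the highest library. The 6 rows from mt-Co2 to mt-Nd4l lie below 10 TPM in all control libraries, and mt-Nd6 in the Clec16a islets lies far below the other 2 experiments.

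mt-Nd6, a complex I subunit, set the Clec16a islets apart. Its median was 2232 TPM in the Tfam control islets (1723 to 2527) and 6351 TPM in the control livers (4515 to 7245), and 24.1 TPM in the Clec16a control islets (13.1 to 62.4). As a percent of the mean TPM of the heavy strand mRNAs mt-Nd1, mt-Nd2, mt-Nd5 and mt-Cytb, none of which has a nuclear match, mt-Nd6 stood at a median of 72.4% in the Tfam control islets, 57.7% in the control livers and 0.393% in the Clec16a control islets. The light strand tRNA genes showed the same split. mt-Tp had 188 to 723 counts in the Tfam control islets and 2198 to 3072 in the control livers, but 0 to 3 in every Clec16a islet library. Heavy strand tRNA genes did not follow it, with 6 to 92 counts in the Clec16a control islets and 13 to 37 in the Tfam control islets. The difference was as large in the Clec16a KO islets, where mt-Nd6 stood at 0.401% of those mRNAs. The experiments were not fitted together. Mouse line, library preparation and counting cannot be told apart from experiment.

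As a share of all counts, the 37 rows took 1.04% to 1.34% in the Tfam control islets of both sexes and 3.38% to 4.62% in the control livers. The Clec16a control islets were wider, from 1.31% to 3.06%. In the Tfam KO islets the share was 0.187% to 0.253%, and in the Tfam KO livers 0.158% to 0.551%, so neither overlapped its controls. The Mfn DKO livers, at 2.04% to 2.80%, lay between control and Tfam KO livers without overlapping either. The Clec16a KO islets, at 0.970% to 2.26%, overlapped their controls.

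**Figure D2:**
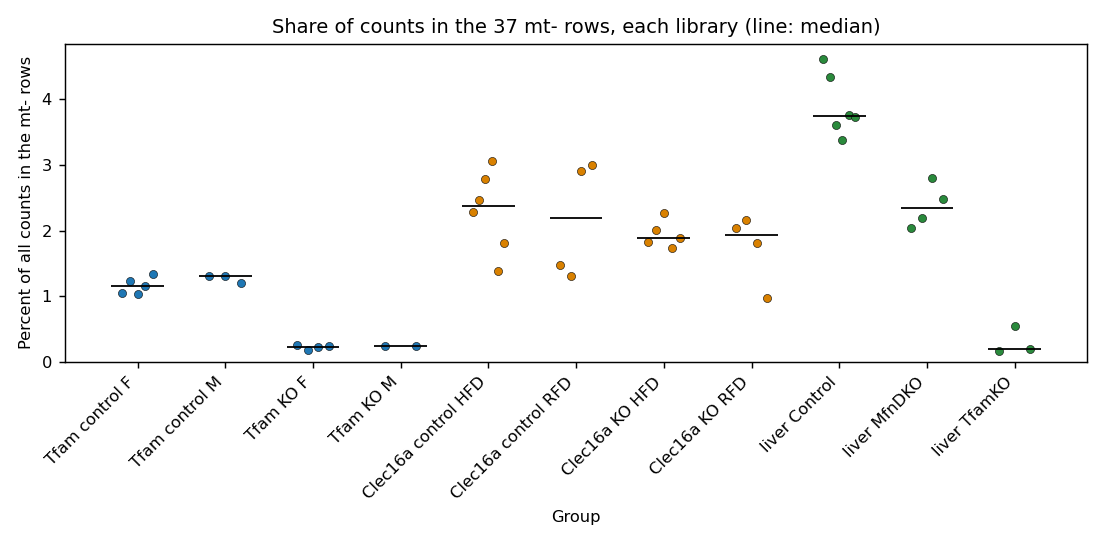
Percent of all counts in the 37 mt- rows (vertical axis from 0) for each of the 46 libraries by group, with a line at the group median. Tfam KO islets (0.187% to 0.253%) and Tfam KO livers (0.158% to 0.551%) lie below all of their control libraries.

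Libraries of the Tfam islets had 55223041 to 83342809 counts, those of the Clec16a islets 16235173 to 55810879, and those of the livers 41961114 to 56894510. Tissue labels were checked against marker lists, with 6 β-cell markers at a median summed 211098 CPM (counts scaled by library total) in the Tfam control females and 0.131 CPM in the control livers. The 7 hepatocyte markers had a median sum of 96402 CPM in the control livers and 2398 CPM in the Tfam control females. Ttr is in both the hepatocyte list and the list of alpha-cell markers. In whole tissue, fewer cells of a type and less RNA per cell cannot be told apart.

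Islets with and without Tfam were compared to ask how the loss of this factor bears on the RNA of the genome it packages. Every tested mitochondrial transcript fell: 18 of 18 members that passed the filter on low counts were called lower over both sexes. A call is an adjusted p of 0.05 or less in the quasi-likelihood test of edgeR, adjusted over all genes. Of all 19752 genes tested, 20.9% were called in either direction and 9.29% lower. The median log2 fold change of the 18 members was -2.61, or -2.57 with mt-Tn and mt-Co3, which lay at or under 3 counts in every KO library, set to that floor, against -0.01 over all genes. Rows of few counts passed the filter through the control libraries, so their calls lend no weight. With at least 10 counts required in every library, 10 members were tested and 10 called, against 12.3% of all genes called lower. Within the sexes, 17 of 18 were called in females (10.8% of all genes called, 4.17% lower) and 14 of 18 in males (8.93% called, 3.69% lower).

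Tfam itself, in CPM on library sizes scaled by TMM (normalised CPM, used for all values per library below), was 37.8 to 44.7 in the 8 control islet libraries and 16.0 to 18.9 in the 6 KO libraries. Its log2 fold change was -1.21 ± 0.06 (SE; adjusted p = 3.76e-10, edgeR).

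mt-Cytb, the complex III subunit, was 2124, 2481, 2167, 2768 and 2770 normalised CPM in the control females and 2757, 2769 and 2547 in the control males. In the KO females it was 392, 327, 385 and 417, and in the KO males 391 and 372. The groups did not overlap, and the log2 fold change was -2.74 ± 0.09 (SE; adjusted p = 5.35e-12, edgeR), leaving 15.0% of the control level. mt-Co1, the catalytic core of complex IV, was 3516 to 4615 normalised CPM over the 8 controls (median 4341) and 563 to 712 over the 6 KO libraries (median 699.6), with a change of -2.64 ± 0.08. mt-Nd2, a complex I subunit, was 849 to 1132 (median 1042) in controls and 144 to 201 (median 179) in KO, with a change of -2.51 ± 0.09.

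The neighbours around the strand change also fell. mt-Nd5, the last heavy strand gene before it, was 1553, 1887, 1601, 1337 and 2061 normalised CPM in control females and 1888, 1967 and 1824 in control males. It was 286, 223, 268 and 304 in KO females and 277 and 255 in KO males. mt-Nd6 was 472, 559, 418, 748 and 594 in control females and 526, 531 and 503 in control males. It was 79.7, 57.0, 72.8 and 83.2 in KO females and 74.9 and 67.5 in KO males. Neither gene's groups overlapped, with log2 changes of -2.71 ± 0.11 for mt-Nd5 and -2.91 ± 0.13 for mt-Nd6 (SE).

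Both rRNAs fell as well. mt-Rnr1, of the small ribosomal subunit, was 131, 144, 132, 195 and 151 normalised CPM in control females and 158, 145 and 133 in control males. In KO it was 41.2, 24.9, 29.0 and 31.9 in females and 45.6 and 38.7 in males. mt-Rnr2, of the large subunit, was 501, 593, 476, 718 and 589 in control females and 638, 631 and 514 in control males, against 150, 86.9, 99.1 and 117 in KO females and 167 and 129 in KO males. The changes were -2.08 ± 0.13 (adjusted p = 1.19e-08) for mt-Rnr1 and -2.22 ± 0.14 (adjusted p = 9.85e-09, edgeR) for mt-Rnr2, leaving 23.6% and 21.4% of control. mt-Nd1, the first protein gene after the rRNAs, changed by -2.26 ± 0.12, nearer to the rRNAs than to the well-counted later mRNAs from mt-Nd2 to mt-Cytb, which ran from -2.51 to -2.91. mt-Tp changed by -2.002 ± 0.21.

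**Figure D3:**
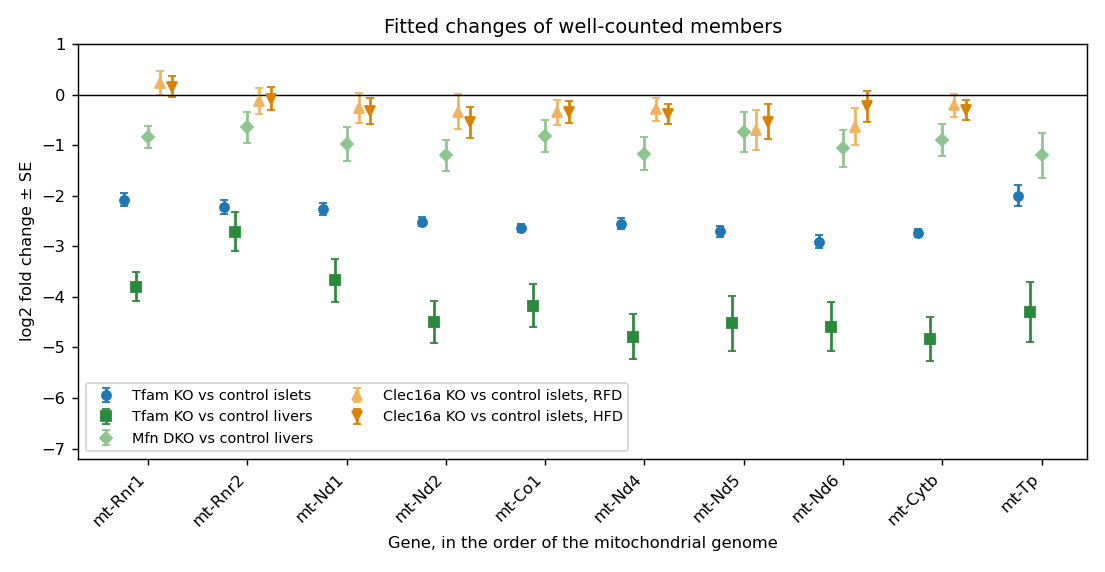
Fitted log2 fold change (points) ± SE (bars) of 10 well-counted members in genome order, for 5 comparisons; mt-Tp was not tested in the Clec16a islets. Both Tfam KO comparisons lie at or below -2.002 at every gene, and the Clec16a comparisons lie within -0.7 and 0.23.

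The sexes were compared through the interaction of genotype with sex, which called 0 of the 18 members and 0 of 19752 genes (edgeR). Unadjusted p-values lay under 0.05 for 1230 genes and 0 members, and DESeq2 by its Wald test called 34 genes, 0 of them members. mt-Rnr1 had the lowest unadjusted p of the members. It changed by -2.25 ± 0.15 in females and -1.79 ± 0.20 in males, a difference of 0.46 ± 0.24 (SE; adjusted p = 0.839). The difference for mt-Cytb was -0.12 ± 0.17 (95% interval -0.45 to 0.20).

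Ratios within each library were then compared between genotypes. There were 4.19 to 6.14 counts of mt-Nd6 per 100 counts of the 12 heavy strand mRNAs in the control islets and 3.54 to 4.09 in the KO islets, without overlap. The geometric mean ratio was 0.814-fold that of controls (exact permutation test within sex, two-sided, p = 0.00159, adjusted p = 0.0317 over 20 ratio tests). For the rRNAs there were 5.60 to 7.50 counts per 100 mRNA counts in controls and 6.90 to 10.6 in KO, which overlapped, and the ratio was 1.32-fold higher (exact permutation p = 0.00317, adjusted p = 0.0317). With mt-Nd5 and mt-Cytb alone as the denominator neither call held (exact permutation adjusted p = 0.143 for mt-Nd6 and 0.0635 for the rRNAs). The rRNA call was also lost without any 1 of 13 of the 14 libraries, and held without control female 4 (adjusted p = 0.0159, exact permutation). In females alone the adjusted p was 0.106 and 0.136 (exact permutation), and in males no p below 0.1 was possible.

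The β-cell markers moved with genotype: their summed CPM was 176280 to 250268 in control and 117904 to 151453 in KO islets, and none of the 6 was at 0. The 3 duct markers moved the other way, at 200.3 to 267 CPM in control and 298 to 396 CPM in KO islets, without overlap. The other 7 lists overlapped over both sexes. The acinar markers, 11 genes, summed to 1120 to 9264 CPM in controls and 1882 to 21372 CPM in KO. In females the 2 delta markers were lower in KO without overlap, at 2558 to 3882 against 3987 to 6049 CPM. In males 6 of the 9 lists were higher in KO without overlap, among them fibroblast or stellate (71.9 to 76.8 against 19.3 to 33.1 CPM) and macrophage markers (195 to 197 against 99.9 to 108 CPM). Their part in the transcript levels was not tested.

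Of 44 nuclear genes that copy, read or process this genome, 43 were tested, with 2 called lower and 6 higher over both sexes and a median log2 fold change of 0.03. Together these were 18.6% of the list, below the 20.9% called among all genes. Besides Tfam, the genes with the smallest adjusted p were Grsf1, an RNA granule protein (0.23 ± 0.05), Mgme1, a nuclease of mitochondrial DNA (0.80 ± 0.18), and Mrm1, an rRNA methyltransferase (0.36 ± 0.08), each higher in KO.

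Tfam KO livers were compared with control livers. All 17 members tested fell, against 11.3% of the 17024 genes tested that were lower and 29.3% called in either direction. The median log2 fold change was -4.21, or -4.18 with mt-Tl1 and mt-Nd3 set to the floor of 3 counts per library, against 0.03 over all genes. The rows mt-Tl1, mt-Tn, mt-Co2, mt-Co3, mt-Nd3 and mt-Atp6 lay at 0 to 0.0779 normalised CPM in the KO livers. Such rows of few counts passed the filter through the other livers, so their calls lend no weight. With at least 10 counts required in every library, 10 members were tested and 10 called, against 13.9% of all genes called lower. Tfam was 54.1 to 66.2 normalised CPM in controls and 15.0, 13.1 and 15.9 in KO replicates 1, 2 and 3, a log2 change of -2.004 ± 0.11.

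KO replicate 2 stood apart from the other 2 KO livers. Its protein mRNAs were higher and its rRNAs lower. Its mt-Nd5 was 4.12 times their mean and its mt-Nd2 2.86 times, whereas its mt-Rnr1 was 0.641 times and its mt-Rnr2 0.433 times. Its Tfam was 0.850 times their mean. Its 7 hepatocyte markers summed to 32861 CPM, against 66036 and 93086 CPM in replicates 1 and 3 and at least 79181 CPM in the controls. In all 3 KO livers the 5 fibroblast or stellate markers (273 to 289 against 179 to 261 CPM) and the 4 endothelial markers (165 to 211 against 126 to 162 CPM) were above the controls without overlap. The 3 alpha-cell markers, Ttr among them, were below the controls without overlap (1882 to 4271 against 5426 to 6823 CPM). The part of these lists in these values was not tested. Xist was above 100 CPM in replicates 2 and 3, in 3 of 6 controls and in 2 of 4 Mfn DKO livers, so each liver group was mixed in this respect. Without replicate 2, the median change was -5.11 with 18 of 18 members called lower, against 5.95% of all genes in that fit. mt-Cytb then changed by -5.58 ± 0.26. Rows of few counts, such as mt-Tn and mt-Co2, each at 0 and 0.0224 normalised CPM in replicates 1 and 3, passed the filter through the other livers. Their calls in that fit lend no weight.

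**Figure D4:**
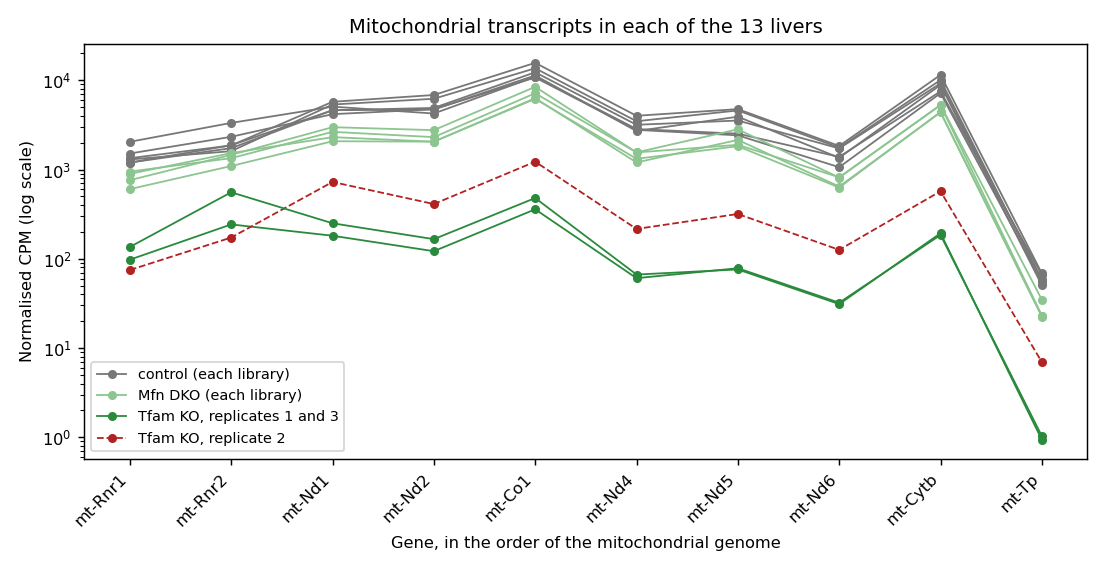
Normalised CPM (log scale) of 10 well-counted members in genome order, 1 line for each of the 13 livers. The Tfam KO livers lie below all others, and KO replicate 2 (dashed) lies above the other 2 KO livers from mt-Nd1 onward and below them at mt-Rnr1 and mt-Rnr2.

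mt-Cytb ran from 7169 to 11493 normalised CPM in the 6 control livers (median 9056) and was 185, 572 and 193 in KO replicates 1, 2 and 3. All KO values lay below the controls, with a log2 change of -4.84 ± 0.44 (SE; adjusted p = 7.54e-05, edgeR), or 3.50% of control. mt-Nd2 ran from 4243 to 6842 (median 4818) in controls and was 122, 411 and 166 in KO, with a change of -4.50 ± 0.42. mt-Nd5 ran from 2417 to 4753 (median 3725) and was 78.4, 318 and 76.0, with a change of -4.52 ± 0.54.

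mt-Nd6 ran from 1062 to 1837 normalised CPM (median 1555) in controls and was 32.2, 126 and 31.1 in KO, a change of -4.59 ± 0.49. mt-Atp6, an ATP synthase subunit, was also among the 3 protein genes with the smallest adjusted p, but had only 37 to 58 counts in controls and 2, 6 and 2 in KO replicates 1, 2 and 3. It is 1 of the rows shared with chromosome 1.

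mt-Rnr1 ran from 1197 to 2046 normalised CPM (median 1319) in controls and was 97.8, 74.9 and 136 in KO, a change of -3.80 ± 0.29 (adjusted p = 2.47e-05, edgeR). mt-Rnr2 ran from 1607 to 3330 (median 1867) and was 243, 173 and 556, a change of -2.71 ± 0.38 (adjusted p = 9.01e-04, edgeR), the smallest fall among the 17 members. It retained 15.3% of control. In KO replicates 1 and 3 there were 34.5 and 56.2 rRNA counts per 100 mRNA counts, against 6.60 to 16.2 in controls, but 7.15 in replicate 2. The ratio was 2.64-fold higher over the 3 KO livers (exact permutation p = 0.0595, adjusted p = 0.149, groups overlapping). There were 2.52 to 3.63 mt-Nd6 counts per 100 heavy strand mRNA counts in KO and 3.31 to 4.57 in controls, 0.792-fold (exact permutation p = 0.0357, adjusted p = 0.132). With mt-Nd5 and mt-Cytb alone as the denominator its direction turned, to a log2 difference of 0.0716.

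Of the 43 nuclear genes of mitochondrial DNA and RNA upkeep tested, 5 were called lower, Tfam included, and 5 higher, or 23.3% of the list against 29.3% of all genes. Polg2, the accessory subunit of the mitochondrial DNA polymerase, fell by 1.05 on the log2 scale, and Mrm2, an rRNA methyltransferase, fell by 0.62. The fitted change of Fastkd2, an RNA-binding protein, was a rise of 0.63. Fastkd2 was 31.2, 32.8 and 19.96 normalised CPM in KO replicates 1, 2 and 3, against 15.1 to 20.5 in controls. KO replicate 3 thus lay inside the control range, and the rise rested on replicates 1 and 2.

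**Figure D5:**
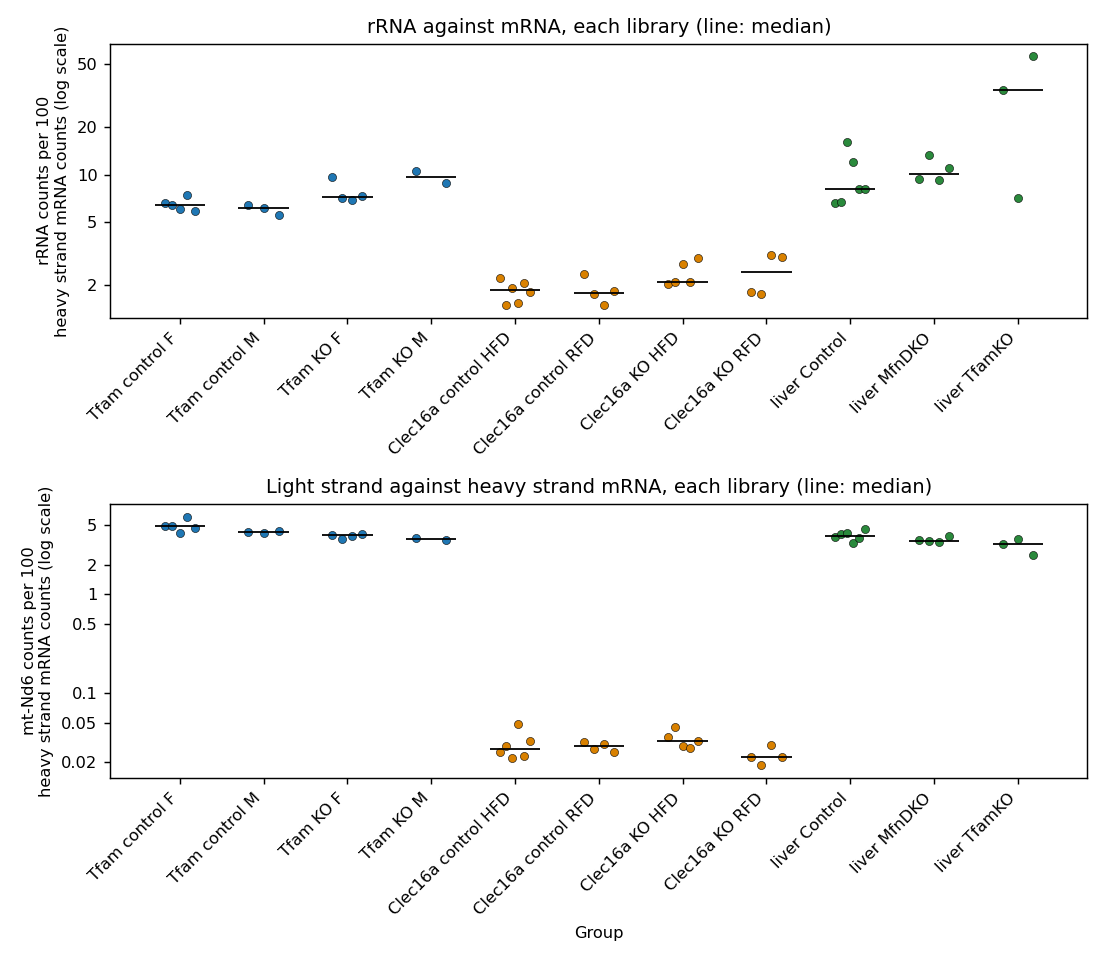
Counts of the 2 rRNAs (top) and of mt-Nd6 (bottom) per 100 counts of the 12 heavy strand mRNAs (log scales), each library by group with a line at the median. Tfam KO livers 1 and 3 lie above all other libraries in the top panel, and the Clec16a islets lie below 0.05 in the bottom panel.

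Mfn DKO livers showed a smaller decrease, called for 4 of the 17 members, with 4.64% of all genes called lower and 9.87% called in either direction. The 4 were mt-Nd2, mt-Rnr1, mt-Atp6 and mt-Nd4, and the median log2 fold change of the 17 was -0.90, against 0.02 over all genes. The count of calls moved with the fit. The Wald test of DESeq2 called 9 (8.78% of all genes called lower), a fit of only the 2 groups called 13 (14.1%), and the fit without Tfam KO replicate 2, which shares the estimate of spread, called 11 (9.95%). The count was 0 without control replicate 1 or any of Mfn DKO replicates 1, 2 and 3, 1 without control replicate 2, 4 or 6 or Mfn DKO replicate 4, and 8 without Tfam KO replicate 3. The share of all genes called lower ran from 1.48% without Mfn DKO replicate 1 to 9.95% without Tfam KO replicate 2. No call was toward higher levels. The 5 fibroblast or stellate markers summed to 278 to 341 CPM in the Mfn DKO livers and 179 to 261 CPM in controls, without overlap. The 6 macrophage markers, at 357 to 704 against 228 to 485 CPM, the 4 endothelial markers, at 150 to 234 against 126 to 162 CPM, and the hepatocyte markers, at 78267 to 96624 against 79181 to 118565 CPM, overlapped. The 3 alpha-cell markers, Ttr among them, lay below the controls without overlap, at 4011 to 5088 against 5426 to 6823 CPM. The part of these lists in the decrease was not tested.

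mt-Nd2 was 2055, 2051, 2763 and 2307 normalised CPM in the 4 Mfn DKO livers, all below the lowest control at 4243. Its change was -1.20 ± 0.31 (SE; adjusted p = 0.0301, edgeR), or 43.5% of control. mt-Nd4, another complex I subunit, was 1200, 1320, 1557 and 1554 against 2700 to 4002 in controls, with a change of -1.17 ± 0.32 (adjusted p = 0.0389, edgeR). mt-Rnr1 was 603, 895, 760 and 949 against 1197 to 2046, with a change of -0.84 ± 0.22 (adjusted p = 0.0320, edgeR). mt-Atp6 had 24 to 37 counts against 37 to 58.

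For the genes not called, mt-Cytb was 4365, 4425, 5305 and 5260 normalised CPM, each below the controls (-0.90 ± 0.31, adjusted p = 0.0828, edgeR). mt-Nd6 was 645, 628, 813 and 818, also below them (-1.07 ± 0.36, adjusted p = 0.0764, edgeR). mt-Rnr2 was 1095, 1528, 1461 and 1342, likewise below them (-0.65 ± 0.31, adjusted p = 0.194). mt-Nd5, at 2148, 1826, 2822 and 1893, overlapped the controls (-0.74 ± 0.39). In all, 11 of the 17 members lay below the controls without overlap, as did 10.3% of all genes tested. The rRNA to mRNA ratio was 1.17-fold that of controls (exact permutation adjusted p = 0.527) and the mt-Nd6 ratio 0.914-fold (adjusted p = 0.294). Tfam changed by -0.09 ± 0.09. Of the 43 nuclear genes, Mrm2 (-0.51 ± 0.14) and Polg2 (-0.79 ± 0.22) were called lower and 0 higher, or 4.65% of the list against 9.87% of all genes.

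Set against the Mfn DKO livers directly, the Tfam KO livers were lower in 14 of 17 members, while 0.188% of all genes were lower and 0.294% were called in either direction. The members thus made up 14 of the 32 genes called lower. The median was -3.30, or -3.29 with mt-Tl1 and mt-Nd3 at the floor. All 17 members had every Tfam KO liver below every Mfn DKO liver, as had 5.10% of all genes tested. Some of the called members were rows of few counts, such as mt-Nd3, mt-Tn and mt-Atp6, at 0 to 0.0779 normalised CPM in the Tfam KO livers. Such rows passed the filter through the other livers, so neither their calls nor their separation lend weight. With at least 10 counts required in every library, fewer members were left to test and fewer were called. mt-Cytb differed by -3.93 ± 0.42 (adjusted p = 6.72e-04, edgeR), mt-Nd4 by -3.62 ± 0.43 and mt-Atp6, at few counts, by -3.30 ± 0.36. mt-Rnr2 differed by -2.07 ± 0.39. Without Tfam KO replicate 2 the median was -4.13, with 14 of 18 members and 0.179% of all genes called lower. mt-Cytb then differed by -4.68 ± 0.25, and mt-Rnr2 by -1.76 ± 0.36, which was not called (adjusted p = 0.0920, edgeR). A fit of only these 2 groups called 1 of 16 members lower and 0.0184% of all genes, with a median of -3.32.

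Clec16a KO islets were compared with control islets on each diet. Xist was above 100 CPM in every Clec16a islet library. None of the 11 members tested was called on RFD, where 7.52% of 17254 genes were called, nor on HFD, where 9.58% were (edgeR). Without adjustment, p lay under 0.05 for 0 members on RFD and for 1 on HFD, mt-Ti, and DESeq2 (Wald test) called 0 on either. The median log2 fold changes were -0.34 on RFD and -0.35 on HFD. Every one of the 11 members overlapped between KO and control on both diets, whereas 15.1% of all genes did not on RFD and 2.60% did not on HFD.

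mt-Nd5 was 1085, 1344, 3804 and 3778 normalised CPM in the RFD controls and 1920, 2267, 1305 and 679 in the RFD KO islets, a change of -0.70 ± 0.40 (SE; 95% interval -1.48 to 0.09). The RFD controls fell into a low and a high pair. mt-Nd6 was 4.80, 3.86, 8.68 and 7.36 in RFD controls and 4.57, 4.06, 5.24 and 2.12 in KO, a change of -0.63 ± 0.36 (-1.34 to 0.08). mt-Co1 was 4106, 3851, 7290 and 7094 against 5227, 5460, 4262 and 2567, a change of -0.35 ± 0.25 (-0.84 to 0.14).

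On HFD, mt-Nd2 ran from 1246 to 3604 normalised CPM in the 6 controls (median 2937) and was 1685, 1754, 1905, 1683 and 1730 in KO, a change of -0.55 ± 0.30 (95% interval -1.14 to 0.04). mt-Nd4 ran from 1548 to 2859 in controls and was 1774, 1820, 1778, 1635 and 1948 in KO, a change of -0.38 ± 0.20 (-0.78 to 0.01). mt-Cytb ran from 4333 to 7835 in controls and was 5098, 5448, 5595, 4719 and 5447 in KO, a change of -0.31 ± 0.20 (-0.70 to 0.08). The KO values lay inside the control range for each of these genes.

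mt-Rnr1 had a positive estimate, at 0.23 ± 0.24 on RFD and 0.16 ± 0.20 on HFD, without a call. mt-Rnr2 stood at -0.13 ± 0.26 and -0.08 ± 0.22. The rRNA to mRNA ratio was 1.28-fold that of controls on RFD (exact permutation p = 0.257, adjusted p = 0.343) and 1.29-fold on HFD (exact permutation p = 0.0325, adjusted p = 0.132).

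The sequencing lane, named in the deposited files as 7 or 8, matched the spread in 1 group. RFD controls on lane 7 had 1.31% and 1.48% of counts in the members, and those on lane 8 had 2.91% and 2.999%. HFD controls did not split this way, with 2.28% to 2.79% on lane 7 and 1.38% to 3.06% on lane 8. With lane as a covariate 0 members were called on either diet. Endothelial markers, 4 genes, summed to 265 to 302 CPM in control and 477 to 582 CPM in KO islets on RFD, without overlap, and to 254 to 358 and 304 to 637 CPM on HFD, with overlap. On HFD the 3 alpha-cell markers were higher in KO without overlap, at 49485 to 62442 against 33903 to 49221 CPM. The other 8 of 9 lists overlapped on either diet. Their part was not tested.

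No member was called between the diets. HFD against RFD called 0 of 11 members in control islets (0.0406% of all genes) and 0 of 11 in KO islets (0.0116%), with medians of 0.11 and 0.04, and 0 at an unadjusted p under 0.05 in either (edgeR; the Wald test of DESeq2 also called 0). mt-Cytb differed by 0.15 ± 0.21 (95% interval -0.27 to 0.56) in controls and 0.05 ± 0.22 (-0.38 to 0.48) in KO. mt-Nd6 differed by 0.63 ± 0.35 (-0.05 to 1.31) in KO. The interaction of genotype with diet called 0 members and 0 of 17254 genes, with 0 members at an unadjusted p under 0.05. Between KO and control, 0 of the 44 nuclear genes were called on RFD and 1 on HFD, against 1298 and 1653 of 17254 genes. It was Rexo2, an exonuclease of short RNAs (0.58 ± 0.16). On HFD, Rexo2 was 97.2, 76.0, 73.4, 43.3 and 74.0 normalised CPM in KO, against 42.5 to 55.0 in controls. KO replicate 4 thus lay inside the control range.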

How the data were processed

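RNA-seq libraries of mouse islets and livers were analysed. The authors' deposited files give, per the file headers, a raw count, a CPM and a TPM for each gene and library. CPM equalled the count over the library total. The submitters' processing notes name FastQC, featureCounts, MultiQC, DESeq2, STAR 2.6.1b, RSEM 1.3.1 and GRCm38, with no roles. The strand setting and the treatment of reads with several matches are not given in the sources used here.

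Counts were used as deposited. The 3 experiments were fitted separately, using the quasi-likelihood test of edgeR 4.0.16 under R 4.3.3 (TMM, filterByExpr, Benjamini-Hochberg over all genes, calls at an adjusted p of 0.05). Sex was an additive term in the Tfam islets over both sexes. SE is the log2 fold change over the square root of F. The 95% intervals use that SE with a quantile of the normal distribution, so they are narrower than the quasi-likelihood test implies. The 2 ratios were tested by exact permutation in 10 comparisons. Alternatives included the Wald test of DESeq2 1.42.0, other filters and size factors, covariates, leaving out each library and a replicate block. The fits were tested on simulated data. A count of 0 was read as allowing 3 counts, which covers counting error only.

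The members and lists were chosen with earlier results of these data known. Values per library, or as a range for some groups, are given for the rRNAs, mt-Nd5, mt-Nd6, mt-Cytb and the 3 protein genes with the smallest adjusted p of a comparison, as far as reported here. For at most 3 nuclear genes besides Tfam in a comparison, fold changes are given, with library values for Fastkd2 and Rexo2. Sequences came from GENCODE M21, in which 55141 of 55487 identifiers were found. Replicate numbers came from the labels and do not pair libraries.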

Additional observations from a re-analysis of the deposited data

Results flagged for a closer look

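Of 64 groups of values tested for a single library far from the rest, 1 stood out. Chance gives about 1 in 20, so a single flag is no excess. mt-Rnr1 in control liver replicate 3 was 2046 normalised CPM, against 1197 to 1512 in the other 5 control livers. The same library was also the highest control for mt-Rnr2, at 3330 against 1607 to 2327.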

How the results depend on the processing

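Single members kept their direction under every alternative computed for them. Requiring at least 10 counts in every library left fewer members to test, and called 10 in the Tfam islets over both sexes, 10 in females, 10 in the Tfam KO livers against control and 8 against Mfn DKO. In the Mfn DKO livers the members called were 0 with the replicate block, 13 with only the groups compared, 9 with the Wald test of DESeq2, and 0 to 11 when single libraries were left out. Tfam KO against Mfn DKO livers gave 1 with the replicate block and 1 with only the groups compared. For females and against Mfn DKO with 10 counts required, and with the replicate block, shares of all genes called are not given here. Those counts of members therefore cannot be weighed against all genes. The replicate numbers did not pair the libraries, with median correlations of same-numbered deviations of 0.0653, -0.0163 and 0.0873 in the Tfam islets, Clec16a islets and livers. Leaving out 1 of the 2 KO males assumes that the other varies like the remaining groups.

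For the Tfam islets over both sexes, the rRNA to mRNA log2 ratio was 0.52 with mt-Nd5 and mt-Cytb as denominator, 0.38 without the protein genes covered by the nuclear copy, and 0.34 to 0.44 with single libraries left out, which ended the call in 13 of 14 cases. The mt-Nd6 ratio was -0.17 with mt-Nd5 and mt-Cytb, and -0.33 to -0.25 with single libraries left out. With that denominator it turned to 0.0716 in Tfam KO livers against control and 0.29 against Mfn DKO. Diet ratios near 0 changed sign. The rRNA ratio between diets in KO islets became -0.0147 per kilobase, -0.0348 with mt-Nd5 and mt-Cytb, -0.0168 without covered genes and -0.14 to 0.14 with single libraries left out, and in controls ran from -0.11 to 0.11. The mt-Nd6 ratio between diets in controls became -0.0220 with mt-Nd5 and mt-Cytb, -0.0247 without covered genes and -0.14 to 0.0908 with single libraries left out. Over the 13 protein rows alone, the mean share of counts was 1.20% in control and 0.219% in KO males. The causes were not tested.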
